A study of Mus musculus with 4 samples.

Results

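The 10 genes described here encode plasma membrane carriers that bring amino acids into the cell or, for Slc3a2, a chain that some of them share: Slc7a11, Slc7a5, Slc3a2, Slc7a1, Slc7a3, Slc1a4, Slc1a5, Slc38a1, Slc38a2 and Slc6a9. They were taken by name from the 24346 gene symbols of an RNA sequencing study of MC38 cells, an established line from a mouse colon carcinoma. All 10 are in the tables. The names were chosen with their levels in these libraries already known, so the differences between the groups are given below as a description with no test.

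The comparison asks which transcripts differ between MC38 cells labelled Arid5a knockout (KO) and MC38 cells labelled wild type (WT), with 2 libraries in each group. The labels give neither the deleted stretch of Arid5a nor the number of clones, and no treatment. Nothing in the labels says that the 2 libraries of a group came from separate cultures, so their spread may be technical. Arid5a itself, an RNA-binding protein with an AT-rich interaction domain, had 2.16 and 1.77 FPKM in the libraries labelled KO, against 0.225 and 0.124 FPKM in those labelled WT. FPKM divides the fragments of a gene by transcript length and by library size. The targeted gene therefore goes against the labels. The column names inside the tables carry the number 0 for the libraries labelled KO and 37 for those labelled WT, and no source used here says what these numbers stand for. An exchange of the 2 labels is possible and was not tested, and it would turn every direction given below. "Labelled KO" and "labelled WT" are used throughout for the names the submitters gave. Higher and lower refer to these names and not to a loss of Arid5a, since 1 value per gene does not show which exons were read.

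Free amino acids cross the membrane mainly through such carriers, and each carrier accepts a set of related amino acids. Some are exchangers made of a light chain that carries out transport and a heavy chain, the Slc3a2 product, that takes the light chain to the cell surface. Others use the sodium gradient to concentrate amino acids, and the exchangers then trade these for further ones. When amino acids run short or the endoplasmic reticulum is stressed, the transcription factor ATF4 is known to raise the mRNA of several of these genes by binding a composite C/EBP-ATF element. Oxidative stress is known to raise Slc7a11 through NRF2 and the antioxidant response element.

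The promoters of 6 of the 10 genes, Slc7a11, Slc1a4, Slc6a9, Slc3a2, Slc7a1 and Slc38a2, are in the RefSeq table on GRCm38.p6, in 9 windows of 300 bases from 250 before to 50 after a transcript start. Those of Slc7a11 and Slc1a4 are shown because they hold the composite element, and 2 of Slc6a9 because they hold the core of the antioxidant response element. Slc7a1 and Slc38a2 also hold that core and are not printed, so the core is not confined to the genes shown. Whether matches go with the size of a difference was not tested. The stretch from 120 bases before the start to 10 after it is printed on the strand of the gene, 5′ to 3′, with matches in capitals. Slc3a2, the shared heavy chain, held no match and is set beside them.
Slc7a11, chr3:50443604-50443733, minus strand: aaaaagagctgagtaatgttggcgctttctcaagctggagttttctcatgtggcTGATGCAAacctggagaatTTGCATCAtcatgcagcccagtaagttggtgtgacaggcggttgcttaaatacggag
Slc1a4, chr11:20332704-20332833, minus strand: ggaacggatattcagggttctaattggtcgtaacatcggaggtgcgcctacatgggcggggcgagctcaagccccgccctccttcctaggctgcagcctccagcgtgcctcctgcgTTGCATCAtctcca
Slc6a9, first window with a match, chr4:117849230-117849359, plus strand: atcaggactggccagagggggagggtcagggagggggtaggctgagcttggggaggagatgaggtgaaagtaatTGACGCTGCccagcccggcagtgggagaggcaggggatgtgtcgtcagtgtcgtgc
Slc6a9, second window with a match, chr4:117855427-117855556, plus strand: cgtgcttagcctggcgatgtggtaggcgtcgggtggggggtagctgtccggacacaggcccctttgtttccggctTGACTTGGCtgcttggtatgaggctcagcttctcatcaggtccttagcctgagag
Slc3a2, chr19:8713888-8714017, minus strand: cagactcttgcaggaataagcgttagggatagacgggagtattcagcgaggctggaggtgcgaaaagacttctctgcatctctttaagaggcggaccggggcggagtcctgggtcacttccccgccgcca

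The composite element was searched as TGATGNAA on both strands. Slc7a11 held 2 matches that do not overlap, from 66 to 59 and from 47 to 40 bases before the start, with the same letters on opposite strands. Slc1a4 held 1, across the start itself. Of all 32851 windows in the table, 3.97% held at least 1 match and 23 windows (0.07%) held 2 or more. The core of the antioxidant response element was searched as TGACNNNGC on both strands and was found in 12.4% of all windows. It matched in 2 windows of Slc6a9, and in 1 window each of Slc7a1, from 11 to 3 bases before the start, and Slc38a2, from 27 to 19 bases before it. Counted by gene, 2 of the 6 held the composite element, beside 4.51% of all genes in the table. The core was in 3 of the 6, beside 14.0% of all genes. No test was made of these shares. The E-box CACGTG, present in 7.15% of all windows, was in no window of the 6 genes. A match describes letters and is no evidence of binding, and a missing match says only that these letters are not in the window.

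Slc7a11 encodes the light chain of the exchanger that imports cystine and exports glutamate, the main source of cysteine for glutathione in many cultured cells. It showed the largest difference of the 9 genes that could be tested. Slc7a11 (chromosome 3, 49892526 to 50443614, minus strand) had 7.26 and 7.51 FPKM in the libraries labelled KO, against 1.74 and 1.78 FPKM in those labelled WT. Both libraries labelled KO lay far above both labelled WT, and their mean was 4.20 times as high. The log2 change, labelled KO minus labelled WT here and below, was 1.60 ± 0.073 (SE) with a pseudocount of 1 FPKM, which shrinks the change of a gene at so low a level. With a pseudocount of 0.1 it was 2.01.

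Slc7a5, the light chain that imports leucine and other large neutral amino acids, had the highest level of the 10. Slc7a5 (chromosome 8, 121881150 to 121907694, minus strand) had 171 and 180 FPKM in the libraries labelled KO, against 122 and 125 FPKM in those labelled WT, a log2 change of 0.50 ± 0.035 (SE). Slc3a2, the heavy chain of both exchangers (chromosome 19, 8706882 to 8723369, minus strand), had 138 and 142 FPKM in the libraries labelled KO, against 101 and 105 FPKM in those labelled WT, a log2 change of 0.44 ± 0.034 (SE). The groups did not overlap for either gene, and both differences were far smaller than that of Slc7a11.

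Because FPKM is per length, the heavy chain can be set against its light chains within a library. The 6 light chains known to pair with it, Slc7a5, Slc7a6, Slc7a7, Slc7a8, Slc7a10 and Slc7a11, summed to 232 and 238 FPKM in the libraries labelled KO and to 174 and 178 FPKM in those labelled WT. The FPKM of Slc3a2 was 0.593 and 0.596 of that sum in the libraries labelled KO, against 0.579 and 0.588 in those labelled WT. The mean ratio in the libraries labelled KO was 1.02 times that in the libraries labelled WT, so heavy chain and summed light chain mRNA differed by nearly the same factor. Slc7a5 made up 73.8% and 75.6% of the sum in the libraries labelled KO and 70.4% and 70.5% in those labelled WT. The ratio thus mostly compares Slc3a2 with Slc7a5, both members chosen on this contrast. Set against Slc7a5 alone, Slc3a2 stood at 0.804 and 0.788 in the libraries labelled KO, against 0.822 and 0.833 in those labelled WT. That mean ratio was 0.962 times as high in the libraries labelled KO. Within the light chains the make-up shifted: Slc7a11 held 3.12% and 3.16% of their sum in the libraries labelled KO and 0.999% and 0.999% in those labelled WT. Slc7a6, the light chain that exchanges cationic for neutral amino acids, held 22.3% and 20.4% in the libraries labelled KO and 27.4% and 27.7% in those labelled WT. Slc7a6 mRNA itself had 51.8 and 48.6 FPKM in the libraries labelled KO, against 47.8 and 49.2 FPKM in those labelled WT, and did not pass the test (limma, adjusted p = 0.39).

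Slc7a1 and Slc7a3 encode cationic amino acid transporters for arginine, lysine and ornithine, which work without the heavy chain. Slc7a1 (chromosome 5, 148327410 to 148399904, minus strand) had 51.9 and 53.5 FPKM in the libraries labelled KO, against 37.6 and 37.8 FPKM in those labelled WT. The groups did not overlap, and the log2 change was 0.47 ± 0.035 (SE). Slc7a3, best known from brain (chromosome X, 101079210 to 101086020, minus strand), had 0.423 and 0.381 FPKM in the libraries labelled KO, against 0.220 and 0.123 FPKM in those labelled WT. It was below the filter of 1 FPKM and was not tested. After scaling by relative depth, its 4 values stand within 1% in the ratio of 9 and 9 fragments in the libraries labelled KO to 7 and 3 in those labelled WT, taken as the smallest whole numbers.

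Slc1a4 and Slc1a5 are sodium-dependent exchangers of small neutral amino acids, and Slc1a5 is known as a glutamine carrier of tumour cells. They lay on opposite sides of no change. Slc1a4 (chromosome 11, 20302180 to 20332713, minus strand) had 14.6 and 15.7 FPKM in the libraries labelled KO, against 8.50 and 8.31 FPKM in those labelled WT, a log2 change of 0.78 ± 0.058 (SE). Slc1a5 (chromosome 7, 16781340 to 16798274, plus strand) had 41.7 and 39.95 FPKM in the libraries labelled KO, against 48.5 and 48.3 FPKM in those labelled WT. It was the 1 member of the 10 with lower levels in the libraries labelled KO, with a log2 change of -0.24 ± 0.037 (SE) and groups that did not overlap. The FPKM of Slc1a4 was 0.349 and 0.392 of that of Slc1a5 in the libraries labelled KO, against 0.175 and 0.172 in those labelled WT. This ratio is taken within a library, so scaling between libraries cannot alter it.

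Slc38a1 and Slc38a2 encode sodium-coupled transporters of small neutral amino acids such as alanine and glutamine, and Slc38a2 is known to rise when amino acids are short. The genes lie on chromosome 15 with 44478 bases between them. Slc38a2 (96687392 to 96699730, minus strand) had 98.0 and 100.5 FPKM in the libraries labelled KO, against 79.0 and 80.5 FPKM in those labelled WT, a log2 change of 0.31 ± 0.031 (SE). Slc38a1 (96571418 to 96642913, minus strand) had 6.48 and 7.01 FPKM in the libraries labelled KO, against 5.08 and 4.999 FPKM in those labelled WT, a log2 change of 0.36 ± 0.069 (SE). Of the differences upward these were the smallest among the tested members, and the FPKM of Slc38a2 was 14.3 to 15.1 times that of Slc38a1 in the libraries labelled KO and 15.5 to 16.1 times in those labelled WT.

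Slc6a9 encodes a sodium- and chloride-dependent glycine transporter, studied mostly in brain. Slc6a9 (chromosome 4, 117834506 to 117875198, plus strand) had 19.2 and 19.4 FPKM in the libraries labelled KO, against 7.28 and 7.86 FPKM in those labelled WT. Its log2 change of 1.24 ± 0.056 (SE) was the second largest of the 9, and the mean FPKM was 2.55 times as high in the libraries labelled KO. Annotated genes on the opposite strand overlap it, the longest stretch being the 33260 bases shared with Gm17114, of which no level was used here. The authors' handling of strand is not given in the sources used here. Of the others, which share 5939 and 6034 bases with it, B4galt2 had 9.44 and 8.58 FPKM in the libraries labelled KO, against 9.32 and 9.14 FPKM in those labelled WT. Ccdc24 had 3.44 and 3.26 FPKM in the libraries labelled KO, against 4.24 and 4.19 FPKM in those labelled WT. The part of the overlapping genes in the value of Slc6a9 was not tested. Annotated genes also overlap Slc7a11 on both strands and Slc7a5 on the opposite strand, and no level of those genes was used here.

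**Figure D1:**
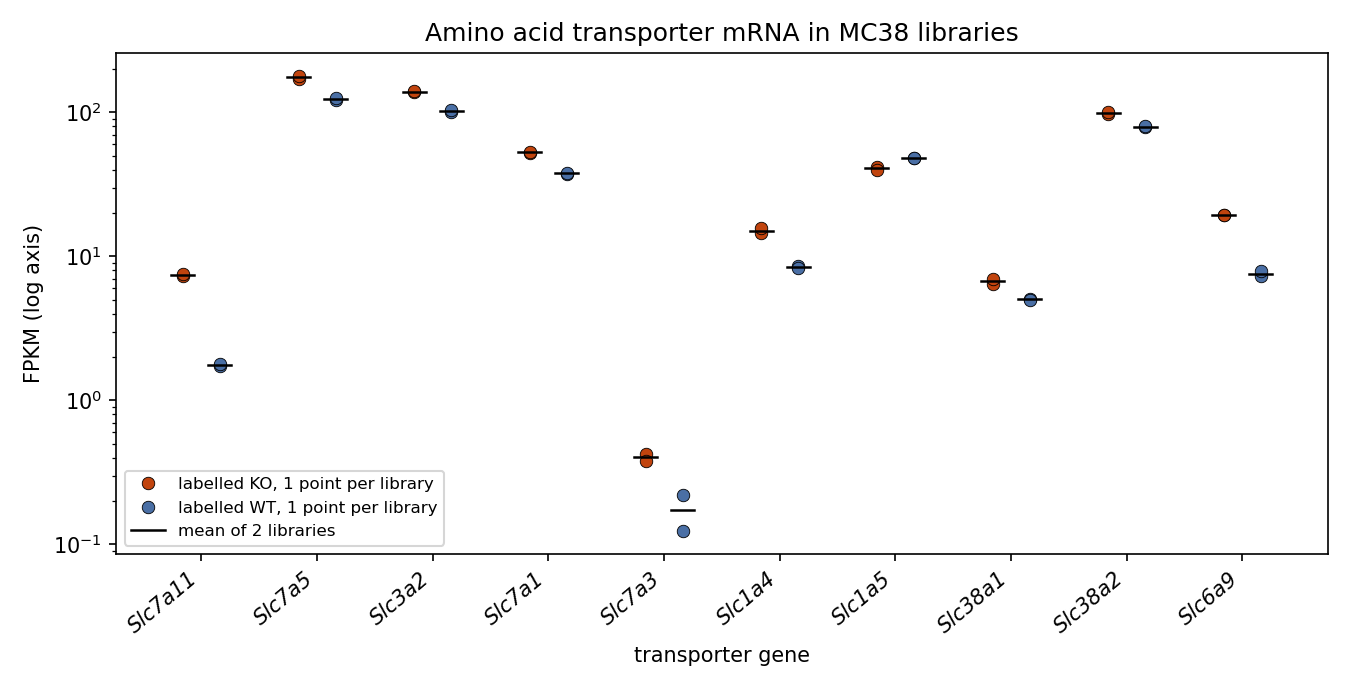
FPKM of the 10 transporter genes on a log axis, 1 point per library, with the 2 libraries labelled KO left of the 2 labelled WT and a bar at each mean. The pairs of points lie apart for every gene, with Slc1a5 the only one lower in the libraries labelled KO, and the widest gap on this axis is that of Slc7a11, at 7.26 and 7.51 FPKM in the libraries labelled KO against 1.74 and 1.78 FPKM in those labelled WT.

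In the order of levels, Slc7a5, Slc3a2 and Slc38a2 stood first in both groups. Below them the order differed: in the libraries labelled KO, Slc7a1 (mean 52.7 FPKM) lay above Slc1a5 (40.8 FPKM), Slc6a9 (19.3 FPKM) above Slc1a4 (15.1 FPKM), and Slc7a11 (7.39 FPKM) above Slc38a1 (6.74 FPKM). In the libraries labelled WT each of these 3 pairs stood the other way round, with means of 37.7 and 48.4 FPKM for Slc7a1 and Slc1a5, 7.57 and 8.41 FPKM for Slc6a9 and Slc1a4, and 1.76 and 5.04 FPKM for Slc7a11 and Slc38a1. The 2 libraries of a group did not overlap between the genes of any of these pairs. By its mean over the 4 libraries, Slc7a5 stood at percentile 94.4 of the 10827 genes tested, Slc1a4 at 43.6 and Slc7a11 at 19.8.

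Of the 9 members above the filter, 8 were higher and 1 lower past the threshold of limma at an adjusted p under 0.05, where 47.6% of all genes tested were called, 24.4% higher and 23.3% lower. The members were chosen on this contrast, so nothing is read from that count. In 8394 of the 10827 genes tested (77.5%) the groups did not overlap, as for these 9. Bulk RNA does not show whether a level differs in every cell or in the share of cells that make the mRNA, and these cannot be told apart here.

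The other amino acid transporters of the plasma membrane did not share one direction. Of 33 such genes, 26 were below the filter, 10 of them listed at 0 in every library. Of the 7 tested, 1 rose and 3 fell (limma, adjusted p under 0.05), beside 24.4% higher and 23.3% lower among all genes tested. The median log2 change of the 7 was 0.049, beside 0.006 for all genes tested. Slc6a15, a sodium-dependent transporter of branched-chain amino acids and proline, had 15.4 and 15.6 FPKM in the libraries labelled KO, against 9.22 and 9.22 FPKM in those labelled WT, and rose by 0.69 ± 0.048 on the log2 scale (limma, adjusted p = 0.000538). Slc6a6, the taurine transporter, fell to 73.0 and 74.6 FPKM in the libraries labelled KO, against 82.3 and 85.0 FPKM in those labelled WT (log2 change -0.18 ± 0.033; limma, adjusted p = 0.00977). Slc38a3, a carrier of glutamine and histidine, fell to 2.00 and 1.92 FPKM in the libraries labelled KO, against 3.52 and 4.22 FPKM in those labelled WT (log2 change -0.72 ± 0.10; limma, adjusted p = 0.00418). Slc6a17 was kept in this list although its known role is that of a vesicular transporter of neurons. It fell to 1.21 and 1.47 FPKM in the libraries labelled KO, against 2.24 and 2.67 FPKM in those labelled WT (log2 change -0.56 ± 0.12; limma, adjusted p = 0.0132). The calls of Slc6a6 and Slc6a17 were lost without WT replicate 2, with adjusted p of 0.0574 and 0.0646, which left 1 rise and 1 fall of 7.

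**Figure D2:**
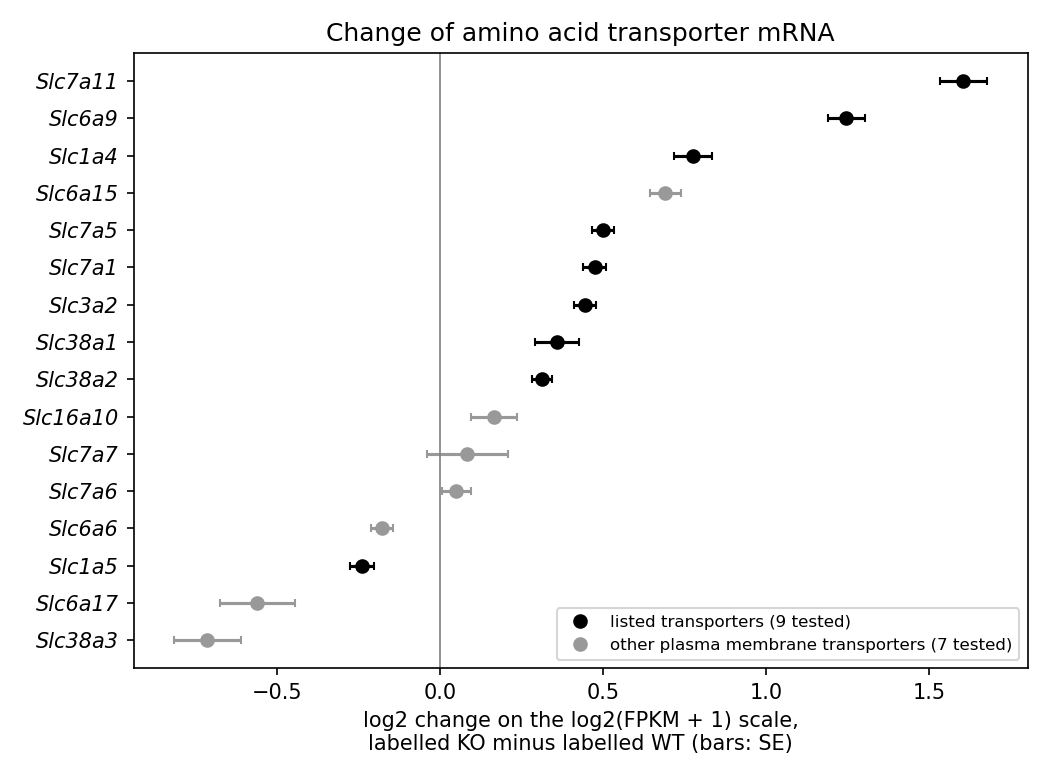
Log2 change on the log2(FPKM + 1) scale, labelled KO minus labelled WT, with SE bars, for the 9 tested members in black and the 7 other tested plasma membrane amino acid transporters in grey. Members run from -0.24 for Slc1a5 to 1.60 for Slc7a11, and the others from -0.72 for Slc38a3 to 0.69 for Slc6a15.

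The pool of transporter mRNA, the summed FPKM of these 43 genes, was 699.9 and 716 FPKM in the libraries labelled KO and 563 and 577 FPKM in those labelled WT. The 10 members held 78.4% and 79.0% of it in the libraries labelled KO and 73.0% and 72.8% in those labelled WT. Slc7a5 held the largest share, 24.5% and 25.1% in the libraries labelled KO against 21.7% and 21.8% in those labelled WT. The share of Slc38a2 hardly moved, at 14.0% and 14.0% in the libraries labelled KO and 14.0% and 14.0% in those labelled WT. Slc1a5 held 5.96% and 5.58% in the libraries labelled KO, against 8.60% and 8.38% in those labelled WT, and Slc6a9 held 2.75% and 2.71% in the libraries labelled KO, against 1.29% and 1.36% in those labelled WT. These shares use the values that chose the members and are a description.

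**Figure D3:**
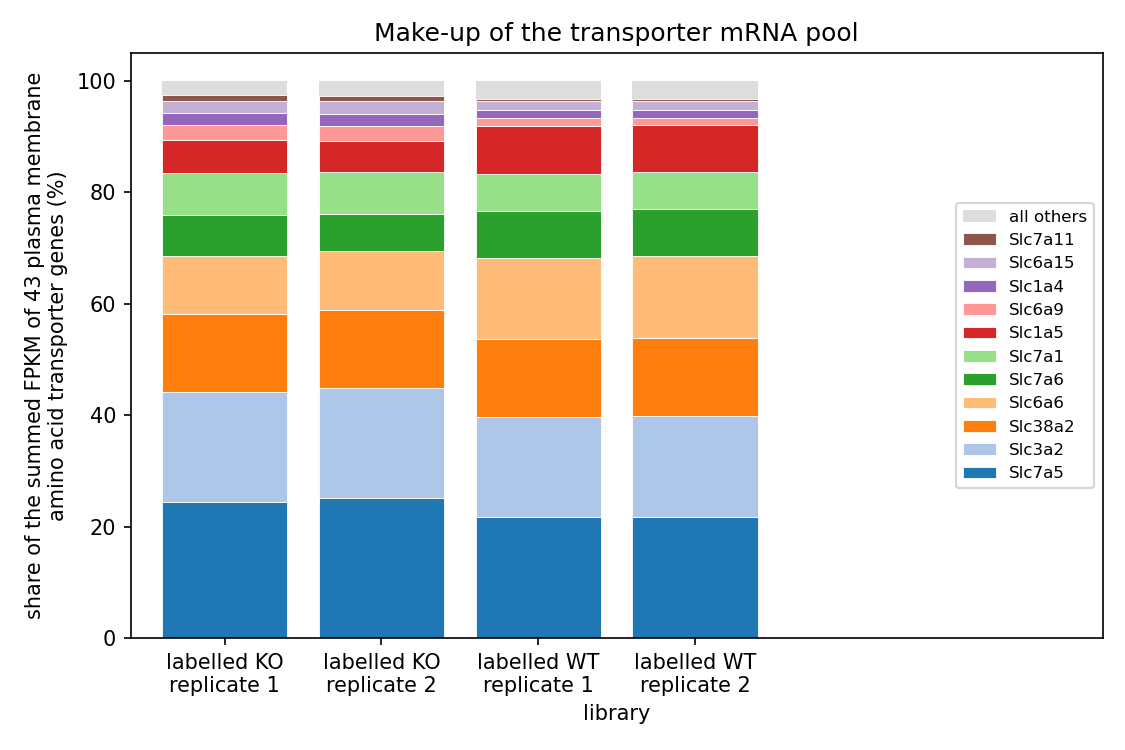
Share in percent of each gene in the summed FPKM of 43 plasma membrane amino acid transporter genes, 1 bar per library, with the libraries labelled KO at the left and those labelled WT at the right. Slc7a5 fills 24.5% and 25.1% of the bars of the libraries labelled KO against 21.7% and 21.8% of those labelled WT, and the segment of Slc1a5 is narrower in the libraries labelled KO.

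Transporters of inner membranes, the lysosome and the mitochondrion were called about as often as all genes tested. Of 22 listed, 18 were tested, of which 4 rose and 4 fell (limma, adjusted p under 0.05), near the 24.4% and 23.3% of all genes tested, with a median log2 change of -0.042 beside 0.006 for all genes tested. Slc38a6, a member of the same family as Slc38a2, rose by 0.47 ± 0.13 on the log2 scale (limma, adjusted p = 0.0341). Its call was lost with no filter (adjusted p = 0.0528) and without KO replicate 1 (0.106), KO replicate 2 (0.0811) or WT replicate 2 (0.114). Slc25a22, the mitochondrial glutamate carrier, rose by 0.42 ± 0.052 (limma, adjusted p = 0.00261), and Sfxn3, a sideroflexin, by 0.32 ± 0.066 (limma, adjusted p = 0.0134; 0.0641 without WT replicate 1). The fourth rise was that of Slc25a15, the mitochondrial ornithine carrier (0.24 ± 0.072; limma, adjusted p = 0.0411), a call lost without KO replicate 1 (0.138), KO replicate 2 (0.0638) or WT replicate 1 (0.166). Ctns, which exports cystine from the lysosome, fell to 3.40 and 3.06 FPKM in the libraries labelled KO, against 5.201 and 4.91 FPKM in those labelled WT (log2 change -0.52 ± 0.081; limma, adjusted p = 0.00565). Slc38a10 changed by -0.46 ± 0.041, Sfxn1, which carries serine into mitochondria, by -0.27 ± 0.033, and Sfxn2 by -0.23 ± 0.055, with adjusted p (limma) of 0.00109, 0.00256 and 0.0213. The call of Sfxn2 was lost without KO replicate 1 (0.0746), WT replicate 1 (0.0698) or WT replicate 2 (0.107). Without WT replicate 1, 2 rises and 3 falls were called in this list. Slc25a15 and Sfxn2 were named after their values were seen.

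Among 22 tested genes of the amino acid response and other known regulators of the transporters, 11 rose (limma, adjusted p under 0.05). The other 11 did not pass the test, of which 1 was lower at an unadjusted p under 0.05. With the replicate number as a block in the fit, 10 of the 22 were called, all of them higher. Among all genes tested, 24.4% were called higher and 23.3% lower. The median log2 change of the 22 was 0.17, beside 0.006 for all genes tested. The list was chosen with earlier results of these data known, so nothing is read from its counts or median. Atf4, which encodes the transcription factor named above, had 400.3 and 403 FPKM in the libraries labelled KO, against 193 and 198 FPKM in those labelled WT (log2 change 1.03 ± 0.026; limma, adjusted p = 4.24e-05). Chac1, which degrades glutathione, had 15.6 and 14.2 FPKM in the libraries labelled KO, against 2.58 and 2.18 FPKM in those labelled WT (log2 change 2.23 ± 0.088; limma, adjusted p = 0.000142). The pseudokinase Trib3 rose by 2.01, the mTORC1 inhibitor Ddit4 by 1.82, the stress cofactor Nupr1 by 1.74 and the transcription factor Cebpb by 1.53, with adjusted p (limma) of at most 0.000136 for each. Chac1, Trib3 and Cebpb lie on chromosome 2, whose 832 tested genes had a median log2 change of 0.23. So do Eif2ak4, another of the 11 rises (log2 change 0.21), and Nfe2l2 (-0.0074). The part of that shift in the values of these genes was not tested. No member of the 10 lies on this chromosome. Eif2ak4 was named after its value was seen. Nfe2l2, which encodes NRF2, had 54.3 and 54.3 FPKM in the libraries labelled KO, against 55.3 and 53.9 FPKM in those labelled WT (limma, adjusted p = 0.866), and Myc did not pass the test either (limma, adjusted p = 0.445).

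Among enzymes of amino acid and glutathione metabolism, listed together with the mitochondrial carrier Slc25a39, more genes rose than fell. Of 21 tested, 15 rose and 4 fell (limma, adjusted p under 0.05), beside 24.4% higher and 23.3% lower among all genes tested. The median log2 change of the 21 was 0.22, beside 0.006 for all genes tested. This list too was chosen with earlier results of these data known, so nothing is read from its counts or median. Without WT replicate 1 the counts were 11 and 1, the fall being that of Gcsh. The enzymes of serine synthesis all passed: Phgdh had 359 and 357 FPKM in the libraries labelled KO, against 211 and 220.3 FPKM in those labelled WT (log2 change 0.73 ± 0.030; limma, adjusted p = 0.000167), Psph rose by 0.80 and Psat1 by 0.49 (limma, adjusted p of 0.000142 and 0.000354). Glutamine synthetase Glul rose by 0.52 ± 0.041 (limma, adjusted p = 0.000713) and the glutaminase Gls2 by 0.47 ± 0.060 (limma, adjusted p = 0.00306). Among those that fell were Gcsh of the glycine cleavage system, to 144 and 140 FPKM in the libraries labelled KO against 202 and 203 FPKM in those labelled WT (log2 change -0.51 ± 0.029; limma, adjusted p = 0.000324), Shmt1 (-0.18) and the aspartate aminotransferase Got1 (-0.16). Gclc and Gclm, which make the first intermediate of glutathione from cysteine and glutamate, rose by 0.28 ± 0.061 and 0.17 ± 0.031, with adjusted p (limma) of 0.017 and 0.00942. The calls of Shmt1 and Got1 were lost without WT replicate 1 (adjusted p of 0.0834 and 0.0669), and those of Gclc and Gclm without WT replicate 2 (adjusted p of 0.0771 and 0.056). Shmt1 and Gclc also lost theirs without KO replicate 2 (0.0639 and 0.064), and Got1 without KO replicate 1 (0.0512). Gss, another of the 15 rises (log2 change 0.22), lies on chromosome 2, and the part of the shift there in its value was not tested. Shmt1, Got1, Gclc, Gclm and Gss were named after their values were seen.

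The genes whose profile over the 4 libraries was most like that of Slc7a11 were sought by the Euclidean distance between log2(FPKM + 1) values centred on their mean. Predicted genes, clones, microRNAs and snoRNAs were left out of this search by their names. Cars, which encodes cysteinyl-tRNA synthetase, was nearest at a distance of 0.0364, with 48.6 and 49.96 FPKM in the libraries labelled KO and 15.9 and 15.6 FPKM in those labelled WT. Fstl1, a secreted glycoprotein, followed at 0.0766, with 52.5 and 53.3 FPKM in the libraries labelled KO and 16.9 and 18.0 FPKM in those labelled WT. The next were Cnp, a cyclic nucleotide phosphodiesterase, at 0.0866, Cebpb at 0.12 and Mapk8ip1, a scaffold of JNK signalling, at 0.131. With 4 libraries in 2 groups, this measure mostly ranks genes by the size of their difference between the groups.

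The stretches of chromosome around the members had medians near 0. Within 5 Mb of Slc7a11, 21 other tested genes had a median log2 change of 0.049, and Slc7a11 lay above all of them, the highest being at 1.47. Of these 21, 8 were called higher and 1 lower (limma, adjusted p under 0.05), beside 24.4% and 23.3% of all genes tested. Slc6a9 lay above all 67 of its neighbours, whose median was -0.082 and whose highest was 0.56, and Slc1a4 above all 36, whose median was -0.078 and whose highest was 0.61. The medians around the other 6 tested members lay between -0.037 and 0.011. Slc7a5 and Slc3a2, with smaller differences, stood at rank 9 and 6 from the top within their stretches, which hold 84 and 167 other genes.

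**Figure D4:**
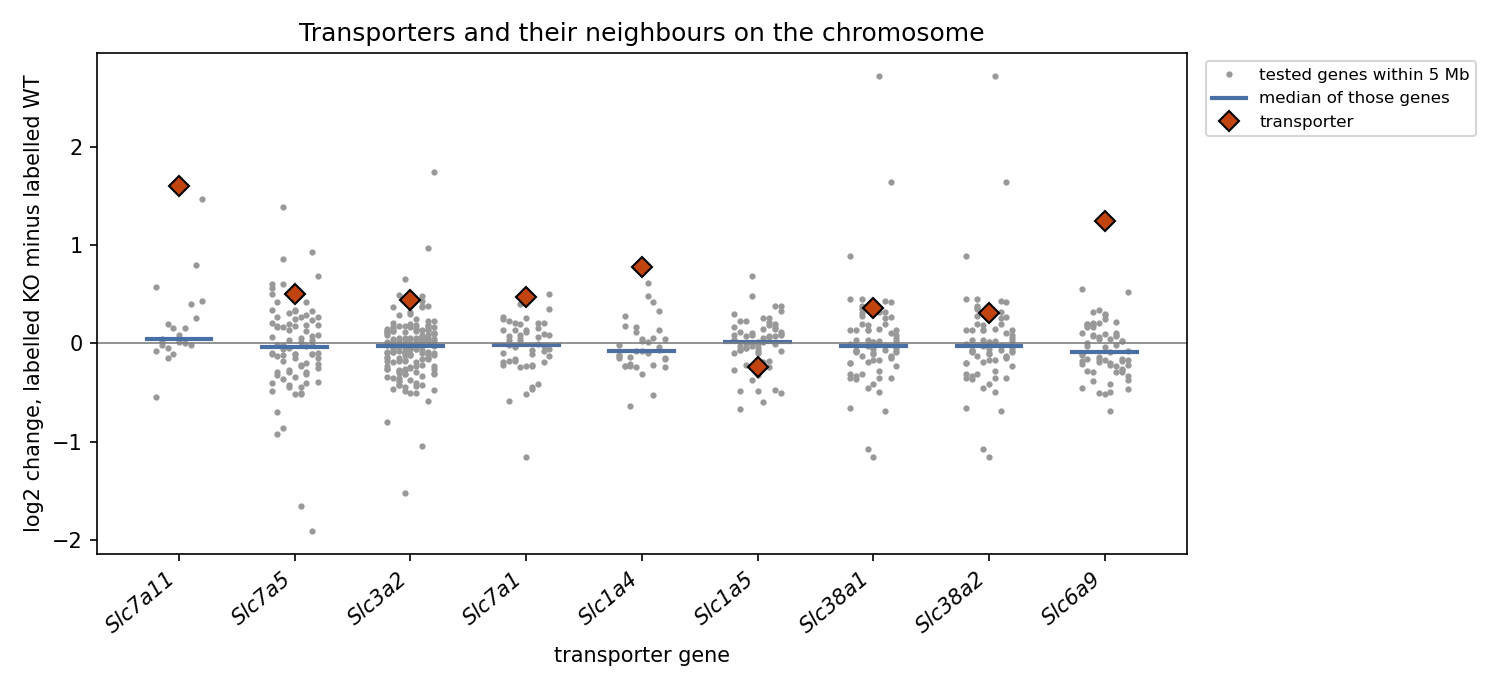
Log2 change, labelled KO minus labelled WT, of each of the 9 tested members (diamonds) and of the tested genes within 5 Mb of it (grey points), with a line at their median. Slc7a11, Slc1a4 and Slc6a9 lie above every neighbour, while Slc1a5 lies below a median of 0.011.

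The labelled cell type was checked against marker genes. Of 18 epithelial and colon markers, 16 were below the filter, Epcam was listed at 0 in all 4 libraries and Cdh1 reached at most 0.0416 FPKM. The 2 tested were junction genes: Jup fell to 4.07 and 4.12 FPKM in the libraries labelled KO, against 10.9 and 11.4 FPKM in those labelled WT (limma, adjusted p = 0.000202), and Tjp1 had 31.3 and 32.7 FPKM in the libraries labelled KO, against 28.8 and 28.8 FPKM in those labelled WT (limma, adjusted p = 0.0307, a call lost without KO replicate 2, WT replicate 1 or WT replicate 2 at 0.116, 0.116 and 0.117). Of 11 mesenchymal markers 8 were tested, of which 3 rose and 4 fell (limma, adjusted p under 0.05), beside 24.4% and 23.3% of all genes tested. Acta2, Thy1 and Col1a2 stayed below the filter. The summed level of the 11 was 1979 and 1971 FPKM in the libraries labelled KO, against 2950 and 2789 FPKM in those labelled WT. Vim had 1163 and 1169 FPKM in the libraries labelled KO and 1367 and 1343 FPKM in those labelled WT, and S100a4, Fn1 and Col3a1 fell with it. Col1a1 rose to 2.14 and 1.95 FPKM in the libraries labelled KO, against 0.275 and 0.246 FPKM in those labelled WT, and Cdh2 and Sparc were the other rises (limma, adjusted p of 0.0165 and 0.00989). The calls of Cdh2 and Sparc were lost without WT replicate 1 (0.0529 and 0.0514), and that of Cdh2 also without KO replicate 1 (0.0651) or WT replicate 2 (0.0828). Among 20 leukocyte markers with a value, 17 did not reach the filter. The summed level was 5.25 and 3.67 FPKM in the libraries labelled KO, against 14.6 and 16.9 FPKM in those labelled WT, and of the 3 tested Cd68 and Cd74 fell (limma, adjusted p of 0.00118 and 0.000664). S100a8 was at the threshold (limma, adjusted p = 0.0489), and its call was lost without KO replicate 2 (adjusted p = 0.15). The pan-leukocyte gene Ptprc was listed at 0 in both libraries labelled KO and had 0.0655 and 0.0854 FPKM in those labelled WT, and Adgre1, Itgam and Cd3e were listed at 0 in all 4 libraries. Other leukocyte markers below the filter lay the other way: Fcgr3 had 1.36 and 0.382 FPKM in the libraries labelled KO, against 0.114 and 0.222 FPKM in those labelled WT, and Csf1r had 0.053 and 0.167 FPKM in the libraries labelled KO, against 0 and 0.0231 FPKM in those labelled WT. The markers given with values were chosen after these were seen. The part of these marker levels in the values of the transporters was not tested.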

How the data were processed

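RNA of MC38 cells was sequenced in 2 libraries labelled KO and 2 labelled WT, from poly(A) libraries made with a stranded kit, per the labels' protocols. The submitters' processing notes name mm10 as the build and, as tools, Cufflinks 2.2.1, TopHat2 2.0.13, SAMtools 0.1.19 and Bowtie2 2.2.3. Their settings, the annotation and the handling of strand are not given in the sources used here. Values were deposited as FPKM, made by the authors per gene and library, which correct for transcript length and library depth but hold no counts, so no count model was used. Depth estimated from low FPKM values, with transcript lengths not corrected for fragment size, was about 9270000 and 10600000 fragments in the libraries labelled KO and 13900000 and 11000000 in those labelled WT.

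Values were tested as log2(FPKM + 1) with limma 3.58.1 (R 4.3.3; lmFit, eBayes with trend, two-sided), on the 10827 genes whose mean reached 1 FPKM, with Benjamini-Hochberg adjustment over all of them. The fit was tested on simulated data. Each SE uses the variance that eBayes moderates over all tested genes, with 2 libraries per group, and is not their spread alone. SD are over 2 libraries per group. Positions come from GENCODE M21 (GRCm38, the assembly of mm10), which matched 95.6% of symbols, and promoters from RefSeq. Named genes were Arid5a, the 10 members, from each list the called genes of largest absolute change (6 at most) and every called gene of a direction with 3 or fewer, and the 5 genes most like Slc7a11. Members and lists were chosen with earlier results of these data known. A comparison of protein sequences was not made here. An enzyme among those that fell is not reported here by name. Python 3.11.15, numpy 2.4.6, pandas 2.3.3, scipy 1.17.1 and matplotlib 3.10.9 served for the rest.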

Additional observations from a re-analysis of the deposited data

How the results depend on the processing

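In 13 alternatives (pseudocounts of 0.1 and 0.5, no filter and a filter of 5 FPKM, 2 further scalings, 2 other moderations of variance, the replicate block, and the omission of each library), the direction of all 9 tested members held, except that Slc7a11 falls below the filter of 5 FPKM. Of 116 member values 6 moved by more than the spread of replicates, all at another pseudocount. Slc7a11 ran from 1.58 to 2.01, Slc6a9 from 1.196 to 1.34 and Slc1a5 from -0.27 to -0.21. The genes called ranged from 3377 to 4109 when 1 library was left out, against 5159, the lowest without WT replicate 2. Likewise the other plasma membrane transporters called ranged from 2 to 4, against 4, the intracellular ones from 5 to 7, against 8 (the lowest without WT replicate 1), and the enzymes from 12 to 15, against 19. At a filter of 5 FPKM, which left 3 of the other plasma membrane transporters, 2 were called. With the replicate number as a block, 4673 genes were called. Deviations of same-numbered libraries correlated at 0.138 across genes, and with 2 pairs and no label of a shared culture the numbers are not taken to pair the samples. Under the block Slc25a15 (adjusted p = 0.0796) and S100a8 (0.107) lost their calls. Of 509 values of the other 40 named genes, 38 lost their call, in 14 genes, none changed sign, and the cause was not tested. Depth limits Slc7a3, at an inferred 3 to 9 fragments per library, taken as the smallest whole numbers.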
